A study of Mus musculus with 10 samples.

Results

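Synaptic vesicle and active zone genes were measured in cortical projection neurons of newborn mice from which Cdk7 had been deleted. The set holds 54 genes, taken by symbol from the 55573 genes of the deposited table, and covers vesicle membrane proteins and synapsins (12 genes), calcium sensors (7), SNAREs and their regulators (10), Rab3 GTPases and rabphilin (4), active zone scaffolds and priming factors (15) and endocytosis proteins (6). The Cdk7_KO group was NexCre/+;Cdk7lox/lox;R26EYFP/+ and the Ctrl group NexCre/+;Cdk7+/+;R26EYFP/+, with 5 pups and 1 library per pup in each. All pups were at postnatal day 3, and both groups carried NexCre and the R26EYFP reporter. NexCre is a Cre driver in the Neurod6 gene that is active in postmitotic glutamatergic neurons of the developing cortex and hippocampus, and it switches the reporter on in the same cells. Neither group therefore tests the driver or the reporter itself. Cells of the microdissected cortex were sorted by flow cytometry for EYFP, and polyA RNA was sequenced from directional libraries. The comparison of the genotypes asks how the RNA of the presynaptic machinery stands in neurons without Cdk7, which phosphorylates cell cycle CDKs and, as part of TFIIH, the tail of RNA polymerase II.

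At a nerve terminal, synaptic vesicles are held by synapsins, docked at the active zone by Rab3, RIM, Bassoon and Piccolo, and primed by Munc13 proteins. The SNAREs synaptobrevin, syntaxin and SNAP-25 pull vesicle and plasma membrane together, synaptotagmins trigger fusion when calcium enters, and NSF with its SNAP adaptors takes the SNARE complex apart. Dynamin, endophilin, synaptojanin and AP180 then retrieve the membrane. In the mouse cortex on postnatal day 3, projection neurons are extending axons and forming their early synapses, and the RNA of many of these proteins is still increasing toward its adult level.

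Libraries held 23497621 to 31233466 counts and detected 19467 to 21583 genes. The 54 genes together took 0.715 to 0.835% of a library's counts. Levels are given in CPM, counts scaled to the library size with TMM factors. Replicates are numbered 1 to 5 for Cdk7_KO and 1, 3, 4, 5 and 6 for Ctrl, and values are listed in that order. By their Xist and Ddx3y counts, 3 Cdk7_KO and 2 Ctrl libraries were male (numbers 1 to 3) and 2 Cdk7_KO and 3 Ctrl libraries female (numbers 4 to 6), so sex and replicate number run together and cannot be told apart.

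Cdk7 (ENSMUSG00000069089, chromosome 13, 100702631 to 100730939 in GRCm38) was at 7.15, 3.66, 4.34, 5.45 and 5.74 CPM in Cdk7_KO, against 13.2, 9.91, 16.7, 19.7 and 17.4 CPM in Ctrl. Every Cdk7_KO library lay below every Ctrl library, and 34.3% of the Ctrl mean was left. On the log2 scale the fold change was -1.54 (SE 0.22). The two-sided exact permutation p on log2(CPM + 1) was 0.00794, the smallest that the 252 assignments of 5 and 5 libraries can give. Cdk7 did not pass edgeR's quasi-likelihood test after Benjamini-Hochberg adjustment over 15578 genes (adjusted p = 0.161), and passed in DESeq2 (adjusted p = 2.25e-08). Over the alternatives of the analysis its adjusted p ranged from 2.25e-08 to 0.9997.

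The labelled cell type was checked on markers. All 10 projection neuron markers, among them Neurod6 and Tbr1, were present in every library and had positive log2 fold changes (median 0.24). Their summed levels were 2217 to 2912 CPM in Cdk7_KO and 1818 to 2700 CPM in Ctrl. Markers of cells that the EYFP sort should remove were above 0 in every library too, and most were at lower levels in Cdk7_KO. For astrocytes and radial glia, 12 of 12 markers had negative log2 fold changes (median -1.11), with sums of 223 to 973 CPM in Cdk7_KO and 879 to 1657 CPM in Ctrl. Interneuron markers (11 of 11 negative, median -0.86) summed to 26.3 to 283 CPM in Cdk7_KO and 89.0 to 394.1 CPM in Ctrl. Vascular markers (10 of 10 negative, median -1.62) summed to 52.4 to 259 CPM in Cdk7_KO and 177 to 1173 CPM in Ctrl. Markers of microglia and macrophages (10 of 10) and of the oligodendrocyte lineage (8 of 8) were negative as well, with medians of -0.79 and -0.80, and 5 of 6 Cajal-Retzius markers were negative. These are sums over whole libraries, in which fewer cells of a type and less RNA per cell cannot be told apart.

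No gene of the presynaptic set was called different between the genotypes in the comparison with genotype alone in the model. All 54 passed the filter on low counts, and edgeR called 0 of them higher or lower at an adjusted p under 0.05, against 0% of the 15578 genes tested. DESeq2 also called 0 of the 54, while it called 0.260% of 16167 genes higher and 3.32% lower, and limma-voom called 0 of the 54 and 0% of all genes. At an unadjusted p under 0.05, 3 of the 54 genes were higher (Rab3a, Bsn and Vamp2), against 4.90% of all genes, and 0 were lower, against 10.5% of all genes. No gene of the set had 5 Cdk7_KO values that all lay on one side of the 5 Ctrl values, whereas 1.28% of all genes lay wholly higher and 2.04% wholly lower. Of the 9667 genes with a mean of at least 10 CPM, 693 were higher and 700 lower at an unadjusted edgeR p under 0.05. Among the same genes, 171 lay wholly higher and 123 wholly lower.

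The fold changes were small and mostly of one sign. The log2 fold change was positive for 44 and negative for 10 of the 54 genes, and positive for 40 when counts were scaled by library totals, which moved the median of all genes to -0.04. A positive value was found for 52.5% of all genes tested, and for 63.9% of the 9667 genes with a mean of at least 10 CPM. The median of the 54 log2 fold changes was 0.09 (quartiles 0.05 and 0.13), beside 0.01 over all genes and 0.05 over the more abundant ones. They ranged from -0.70 for Synpr to 0.29 for Sv2c. Summed over the set, the level was 7236, 7947, 8275, 8061 and 7989 CPM in Cdk7_KO, against 7340, 7804, 6912, 7195 and 7706 CPM in Ctrl. Cdk7_KO replicate 1 lay inside the Ctrl range and the other 4 Cdk7_KO libraries above it. The sums average 7901 ± 393 CPM in Cdk7_KO and 7391 ± 368 CPM in Ctrl (SD, n = 5 each).

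**Figure D1:**
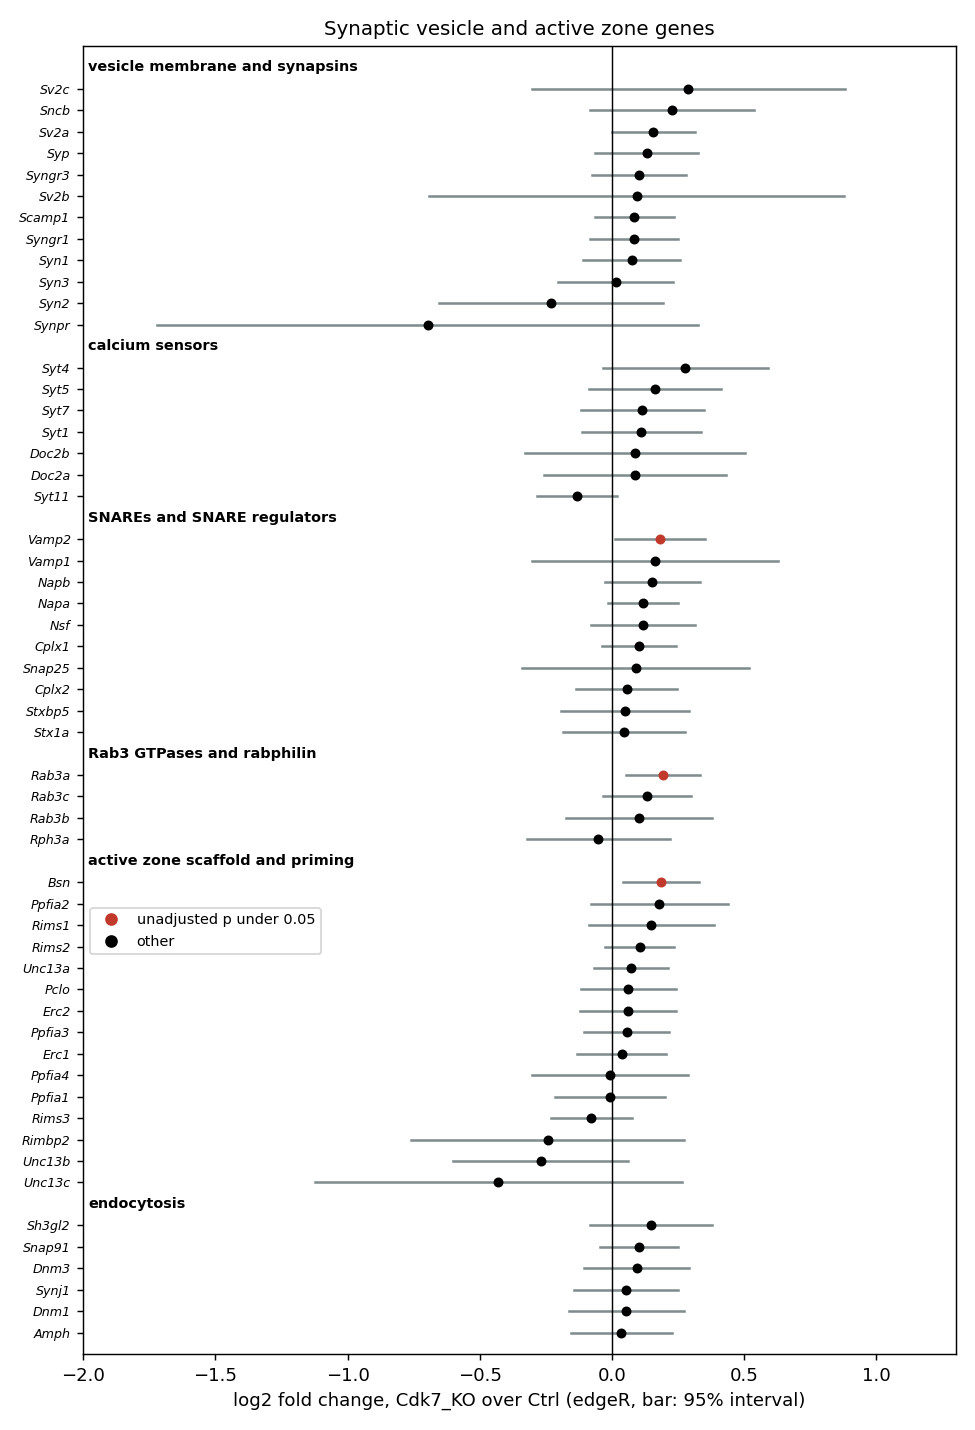
The log2 fold change of each gene, Cdk7_KO over Ctrl, with its 95% interval from edgeR, grouped by role; genes at an unadjusted p under 0.05 are coloured. Most points lie a little right of 0 with intervals that cross it, and the widest intervals belong to Synpr, Sv2b and Unc13c.

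How large a difference these libraries leave room for can be read from the 95% intervals. For 29 of the 54 genes the whole interval lay within a 1.25-fold difference in either direction, for 45 within 1.5-fold and for 52 within 2-fold. The same held for 31.1%, 58.6% and 73.9% of all genes tested, which include less abundant genes and were not matched to the set for level. The 9 genes whose interval reached past 1.5-fold were Syn2, Synpr, Sv2b, Sv2c, Syt4, Vamp1, Rimbp2, Unc13b and Unc13c, and only Synpr and Unc13c reached past 2-fold. In counts simulated for this comparison over 15327 genes, edgeR recovered 10% of genes changed 1.25-fold, 38% of those changed 1.5-fold, 72% of those changed 2-fold and 84% of those changed 3-fold. The changed genes were picked from all but the least abundant genes, not from the set. Each was drawn independently, without shifts shared by the genes of a library, so these rates are not those of the set.

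The RefSeq table of promoters, each window running from 250 bases before to 50 bases after a transcription start, held 44 of the 54 genes with 56 windows. These windows were rich in G and C, with a median of 62.2% against 52.7% over all 32851 windows, and their ratio of observed to expected CpG was 0.69 against 0.38. The GC box GGGCGG, a binding motif of Sp1 family factors, occurred on either strand in 66.1% of the windows of the set and in 35.7% of all windows. The left arm of the RE1 element, TTCAGCACC, which is bound by the repressor REST that keeps neuronal genes silent outside neurons, occurred in 5.36% of the windows of the set (Ppfia3, Syn1 and Unc13a) and in 0.371% of all windows. The cyclic AMP response element TGACGTCA occurred in 5.36% (Napa, Sh3gl2 and Syn1) and 1.79%, and the TATA motif TATAAA in 5.36% (Rab3b and Sv2b) and 13.6%. Matches were searched on both strands, did not overlap each other in the windows printed here, and say nothing of whether a factor was bound. The shares were not compared with windows of like G and C content. Some windows of the set lie far from the gene start in GENCODE M21, among them that of Cplx2 (68793 bases) and 1 of the 2 of Synpr (169178 bases).

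Printed below, 5′ to 3′ on the strand of the gene in GRCm38.p6 from RefSeq, are the windows of Rab3a (first of its 2 windows, chr8:70754453-70754752, plus strand) and Bsn (chr9:108190334-108190633, minus strand), the genes with the smallest p of the set, and of Syn1 (chrX:20920869-20921168, minus strand) and Unc13a (chr8:71671708-71672007, minus strand), which hold the RE1 arm. Capitals mark the motifs named above: GC boxes on the opposite strand in Rab3a and Unc13a, the RE1 arm in Syn1 and, on the opposite strand, in Unc13a, and the cyclic AMP response element in Syn1. The window of Bsn holds none of them.
Rab3a: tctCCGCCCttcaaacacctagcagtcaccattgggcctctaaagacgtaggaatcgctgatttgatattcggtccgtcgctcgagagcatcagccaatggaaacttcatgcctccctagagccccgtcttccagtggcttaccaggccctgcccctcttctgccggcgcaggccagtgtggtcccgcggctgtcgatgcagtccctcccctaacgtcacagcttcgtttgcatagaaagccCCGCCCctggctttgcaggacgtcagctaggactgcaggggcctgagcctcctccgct
Bsn: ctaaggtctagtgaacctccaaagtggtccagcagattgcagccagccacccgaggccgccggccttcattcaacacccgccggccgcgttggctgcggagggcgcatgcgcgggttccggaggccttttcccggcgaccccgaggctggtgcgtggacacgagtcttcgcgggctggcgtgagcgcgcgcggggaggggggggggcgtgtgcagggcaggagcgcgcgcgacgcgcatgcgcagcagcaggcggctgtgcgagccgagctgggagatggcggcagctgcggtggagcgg
Syn1: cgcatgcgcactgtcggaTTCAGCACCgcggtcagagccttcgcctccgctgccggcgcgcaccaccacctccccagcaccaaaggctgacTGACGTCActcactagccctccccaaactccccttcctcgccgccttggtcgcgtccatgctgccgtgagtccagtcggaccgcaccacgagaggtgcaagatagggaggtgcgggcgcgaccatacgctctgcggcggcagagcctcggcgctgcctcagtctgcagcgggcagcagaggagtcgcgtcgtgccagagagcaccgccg
Unc13a: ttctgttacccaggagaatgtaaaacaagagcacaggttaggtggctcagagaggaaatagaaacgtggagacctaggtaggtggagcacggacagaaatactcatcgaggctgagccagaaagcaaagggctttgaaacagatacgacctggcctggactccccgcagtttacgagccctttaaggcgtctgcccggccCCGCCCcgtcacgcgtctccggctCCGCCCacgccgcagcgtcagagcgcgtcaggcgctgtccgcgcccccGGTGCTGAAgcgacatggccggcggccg

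Among vesicle membrane proteins and synapsins, 10 of 12 log2 fold changes were positive (median 0.09), 0 passed the correction and 0 reached an unadjusted p under 0.05. Sv2a, a vesicle glycoprotein that binds synaptotagmin and is the target of the antiepileptic drug levetiracetam, was at 239, 294, 290.3, 285 and 281 CPM in Cdk7_KO, against 255, 268, 229, 228 and 267 CPM in Ctrl. Its Cdk7_KO replicate 1 fell among the Ctrl values, and the other 4 lay above all of them. Sv2a had a log2 fold change of 0.16 (SE 0.07) and did not pass (edgeR adjusted p = 0.328). Sncb, which encodes beta-synuclein, a small protein of the presynaptic cytosol, had 50.3, 69.9, 85.5, 69.8 and 65.0 CPM in Cdk7_KO, against 64.4, 71.7, 47.4, 49.4 and 57.8 CPM in Ctrl. The groups overlapped, the lowest Cdk7_KO value lying between the Ctrl values of replicates 5 and 6 (log2 fold change 0.23, SE 0.14, edgeR adjusted p = 0.476). Syn1, the synapsin that tethers the reserve pool of vesicles, was the most abundant of the class per length. It was at 183, 185, 203, 239 and 215 CPM in Cdk7_KO, against 192, 213, 174, 185 and 211 CPM in Ctrl. Only the 2 female Cdk7_KO libraries, numbers 4 and 5, exceeded every Ctrl library (log2 fold change 0.07, SE 0.09, edgeR adjusted p = 0.727).

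The other vesicle proteins with high levels differed little. Syp, whose product synaptophysin is a main protein of the vesicle membrane, averaged 288 ± 35.7 CPM in Cdk7_KO and 263 ± 22.4 CPM in Ctrl (SD, n = 5 each). Scamp1, a carrier membrane protein, averaged 163 ± 10.0 CPM in Cdk7_KO and 154 ± 12.5 CPM in Ctrl. For the synaptogyrin genes Syngr1 and Syngr3 the log2 fold changes were 0.08 and 0.10, and for the third synapsin gene, Syn3, it was 0.01. Syn2 averaged 46.6 ± 10.2 CPM in Cdk7_KO and 54.6 ± 15.03 CPM in Ctrl, a log2 fold change of -0.23 (SE 0.19), which was 0.093 with the index of glial, vascular and microglial markers as a covariate, 0.023 with the interneuron score and 0.076 in male libraries. That index was lower in every Cdk7_KO library than in any Ctrl library, so a fit with it cannot separate other cells from genotype. Sv2b and Sv2c, the less abundant relatives of Sv2a, had log2 fold changes of 0.09 and 0.29 with standard errors of 0.36 and 0.27.

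Synpr was the most variable gene of the set. It encodes synaptoporin, a relative of synaptophysin, and was at 14.1, 4.85, 7.39, 2.23 and 6.16 CPM in Cdk7_KO, against 3.73, 7.65, 15.4, 19.1 and 10.6 CPM in Ctrl. Its log2 fold change of -0.70 had a standard error of 0.47, and the groups overlapped over most of their range (edgeR adjusted p = 0.513). Ranked by Synpr, the 10 libraries stood in the same order as when ranked by the summed level of the 11 interneuron markers, from Cdk7_KO replicate 4 (26.3 CPM of interneuron markers) to Ctrl replicate 5 (394.1 CPM). This match was looked for after the values were seen, and the part of interneurons in the level of Synpr was not tested. With the interneuron score as a covariate the log2 fold change of Synpr was 0.19, and with the index of other cells, that of glial, vascular and microglial markers, 0.32.

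Synaptotagmins and Doc2 proteins, the class of calcium sensors, had 6 of 7 positive log2 fold changes (median 0.11), with 0 past the correction and 0 at an unadjusted p under 0.05. Syt4, a synaptotagmin of secretory granules and vesicles with weak calcium binding, was among the most abundant genes of the set per length. Its level was 527, 412, 484, 649 and 616 CPM in Cdk7_KO, against 448, 462, 309, 503 and 494 CPM in Ctrl. The 2 female Cdk7_KO libraries and replicate 1 lay above every Ctrl library, and Ctrl replicate 4 lay far below the others. Its log2 fold change of 0.28 (SE 0.14) did not pass (edgeR adjusted p = 0.381), and without Ctrl replicate 4 it was 0.18. Syt11 is a closely related synaptotagmin, placed in this class by family, that does not act as a calcium sensor. It was at 481, 403, 396.7, 437 and 444 CPM in Cdk7_KO, against 415, 475, 481, 509 and 487 CPM in Ctrl. Cdk7_KO replicate 1 reached the middle of the Ctrl range and Ctrl replicate 1 fell within the Cdk7_KO range (log2 fold change -0.13, SE 0.07, edgeR adjusted p = 0.398). Syt11 was the only negative gene of its class.

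Syt1, the sensor for fast synchronous release, averaged 199 ± 32.0 CPM in Cdk7_KO and 184 ± 15.1 CPM in Ctrl (SD, n = 5 each). Syt7, which serves slow release and vesicle replenishment, averaged 152 ± 23.7 CPM in Cdk7_KO and 140.1 ± 13.8 CPM in Ctrl. Both differences were smaller than 1 SD of the Cdk7_KO libraries. For Syt5 the log2 fold change was 0.16 (SE 0.11), and for Doc2a and Doc2b, high-affinity sensors linked to spontaneous release, it was 0.09 for each.

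SNAREs and their regulators had 10 of 10 positive log2 fold changes (median 0.11), of which Stx1a turned to -0.0023 when scaled by library totals, and 0 passed the correction. Within sex, 7 of the 10 were positive in male and 7 in female libraries. Vamp2 (chromosome 11, 69088490 to 69092384) encodes synaptobrevin 2, the vesicle SNARE of most central synapses. It was at 385, 474, 480.2, 483 and 434 CPM in Cdk7_KO, against 426, 442, 363, 369 and 389 CPM in Ctrl. Cdk7_KO replicates 2, 3 and 4 lay above every Ctrl library, and replicates 1 and 5 within the Ctrl range. Vamp2 had a log2 fold change of 0.18 (SE 0.08) at an unadjusted p of 0.0383 and an edgeR adjusted p of 0.294. Napa, the SNAP adaptor that brings NSF to spent SNARE complexes, had 118, 136, 123, 123 and 122 CPM in Cdk7_KO, against 122, 121, 109, 108 and 112 CPM in Ctrl. Its values were tight and the groups touched through Cdk7_KO replicates 1 and 5 and Ctrl replicates 1 and 3 (log2 fold change 0.12, SE 0.06, edgeR adjusted p = 0.376).

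Cplx2, a complexin that clamps and then promotes fusion, was at 541, 573, 629, 559 and 592 CPM in Cdk7_KO, against 608, 599, 476, 473 and 626 CPM in Ctrl. Ctrl libraries were split between 3 at the Cdk7_KO level and 2, replicates 4 and 5, below it (log2 fold change 0.06, SE 0.09, edgeR adjusted p = 0.811). Cplx1 averaged 140.2 ± 3.99 CPM in Cdk7_KO and 130.4 ± 11.2 CPM in Ctrl (SD, n = 5 each). The target SNAREs of the plasma membrane, Stx1a and Snap25, had log2 fold changes of 0.05 (SE 0.11) and 0.09 (SE 0.20). Snap25 ranked among the most variable genes of the set, with 105 ± 32.2 CPM in Cdk7_KO and 98.8 ± 20.8 CPM in Ctrl. Nsf, Napb and Stxbp5, the gene of the release inhibitor tomosyn, were at 0.12, 0.15 and 0.05 on the log2 scale.

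**Figure D2:**
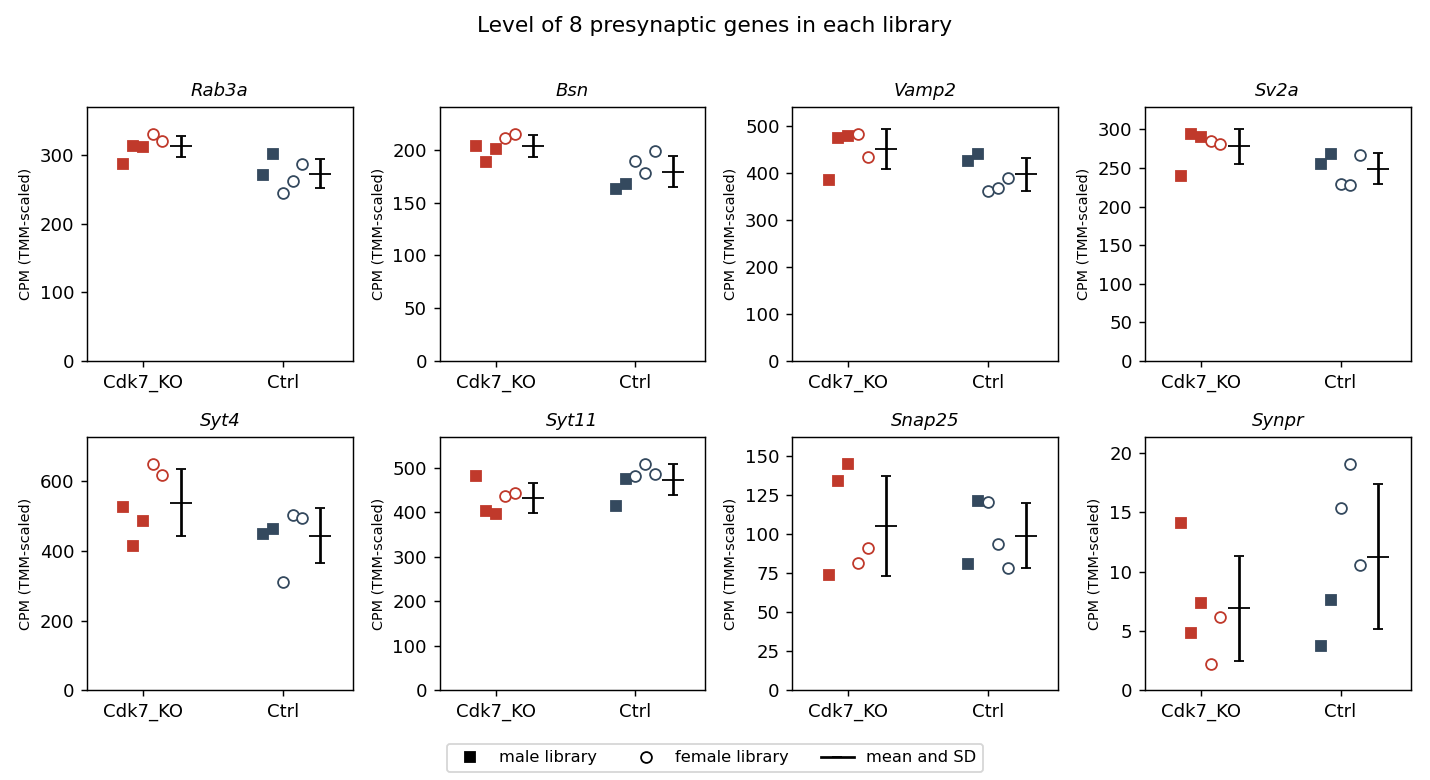
CPM of 8 genes in each library, Cdk7_KO left of Ctrl, with filled squares for male and open circles for female libraries and the mean with its SD beside them; each axis starts at 0. The genotypes overlap in all 8 panels, and Synpr shows the widest spread, 2.23 to 14.1 CPM in Cdk7_KO and 3.73 to 19.1 CPM in Ctrl.

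Among Rab3 proteins, which bind vesicles in their GTP form and recruit RIM and rabphilin, 3 of 4 genes were positive (median 0.12) and 0 passed the correction. Rab3a (chromosome 8, 70754679 to 70758677) had the smallest p of the set. Its level was 288, 313, 311, 331 and 321 CPM in Cdk7_KO, against 271, 301, 245, 262 and 287 CPM in Ctrl. All Cdk7_KO values but that of replicate 1 lay above the highest Ctrl library, replicate 3. Rab3a had a log2 fold change of 0.20 (SE 0.06) with a 95% interval of 0.06 to 0.34, at an unadjusted p of 0.0102 and an edgeR adjusted p of 0.192. Rab3c was at 244, 216, 216, 258 and 260.1 CPM in Cdk7_KO, against 189, 237, 217, 219 and 227 CPM in Ctrl. Cdk7_KO replicates 1, 4 and 5 exceeded every Ctrl library and the other 2 fell within the Ctrl range (log2 fold change 0.13, SE 0.08, edgeR adjusted p = 0.437). For Rab3b the log2 fold change was 0.10 and for Rph3a, the Rab3 effector rabphilin, -0.05.

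Active zone scaffolds and priming factors were the most mixed class, with 9 of 15 positive log2 fold changes (median 0.06) and 0 past the correction. Bsn (chromosome 9, 108096022 to 108190384) encodes Bassoon, a giant scaffold that clusters vesicles and organises the release site. It was at 204, 188, 201, 212 and 215 CPM in Cdk7_KO, against 163, 168, 189, 178 and 199 CPM in Ctrl. Only Cdk7_KO replicate 2 lay among the Ctrl values, below Ctrl replicates 4 and 6. Bsn had a log2 fold change of 0.19 (SE 0.07) at an unadjusted p of 0.0155 and an edgeR adjusted p of 0.211. When sex was a factor in the model, edgeR called 1 of the 54 genes, and this was Bsn, at 0.22 (SE 0.05, edgeR adjusted p = 0.0416). That model called 0.295% of all genes higher and 4.40% lower. At an unadjusted p under 0.05 it placed 6 of the 54 higher (Syt4, Vamp2, Rab3a, Rab3c, Bsn and Ppfia2), against 6.98% of all genes, and 0 lower, against 13.1%. Over 22 alternatives the adjusted p of Bsn ranged from 0.0416 to 0.9997. With the index of other cells as covariate the log2 fold change of Bsn was 0.11 at an edgeR adjusted p of 0.9997. In that fit only 0.828% of all genes were higher and 0.764% lower at an unadjusted p under 0.05. Since the index did not overlap between the genotypes, this fit cannot separate other cells from genotype. Its large partner Pclo, which encodes Piccolo, averaged 117 ± 9.46 CPM in Cdk7_KO and 112 ± 12.3 CPM in Ctrl (SD, n = 5 each), a log2 fold change of 0.06 (SE 0.08).

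Ppfia2, a liprin-alpha that helps assemble release sites, was at 272, 235, 196, 287 and 245 CPM in Cdk7_KO, against 199, 175, 248, 214 and 255 CPM in Ctrl. The ranges overlapped widely (log2 fold change 0.18, SE 0.12, edgeR adjusted p = 0.504). Unc13b encodes Munc13-2, a priming factor of a subset of synapses. It was at 34.6, 43.6, 42.5, 28.4 and 28.7 CPM in Cdk7_KO, against 39.8, 37.6, 57.0, 41.2 and 38.9 CPM in Ctrl. Cdk7_KO replicates 1, 4 and 5 lay below every Ctrl library, replicates 2 and 3 did not, and Ctrl replicate 4 stood above the rest. Its log2 fold change of -0.27 (SE 0.15) did not pass (edgeR adjusted p = 0.421), and it was -0.14 without Ctrl replicate 4.

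The main priming factor gene, Unc13a, averaged 245 ± 20.7 CPM in Cdk7_KO and 233 ± 8.83 CPM in Ctrl (SD, n = 5 each). Unc13c, a Munc13 gene with a low level, averaged 4.01 ± 1.49 CPM in Cdk7_KO and 5.41 ± 1.58 CPM in Ctrl, a log2 fold change of -0.43 (SE 0.32). The sign of Unc13c turned with the index of other cells (0.22), with the interneuron score (0.084) and in male libraries (0.24). The RIM genes, whose products link Rab3, Munc13 and calcium channels, had log2 fold changes of 0.15 (Rims1), 0.11 (Rims2) and -0.08 (Rims3). Rimbp2, which ties RIM to calcium channels, was at -0.24 (SE 0.24), and at 0.085 with the index of other cells. The ELKS genes Erc1 and Erc2 were at 0.04 and 0.06, and the other liprin genes Ppfia1, Ppfia3 and Ppfia4 lay between -0.01 and 0.06.

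Endocytosis genes had 6 of 6 positive log2 fold changes (median 0.07), of which Amph turned to -0.016 when scaled by library totals, with 0 past the correction and 0 at an unadjusted p under 0.05. Within sex, 4 of the 6 were positive in male and 5 in female libraries. Snap91, whose product AP180 assembles clathrin coats at the terminal, was at 219.9, 252, 266, 239 and 252 CPM in Cdk7_KO, against 221, 237, 206, 233 and 247 CPM in Ctrl. Cdk7_KO replicates 2, 3 and 5 exceeded all Ctrl libraries by a small margin (log2 fold change 0.10, SE 0.07, edgeR adjusted p = 0.500). Sh3gl2, the gene of endophilin A1, which bends membrane and recruits dynamin, had 82.4, 123, 118, 103 and 104 CPM in Cdk7_KO, against 86.4, 111, 89.4, 91.3 and 100.3 CPM in Ctrl. Its lowest library of all was Cdk7_KO replicate 1 (log2 fold change 0.15, SE 0.11, edgeR adjusted p = 0.544). Dnm1, the GTPase that pinches vesicles off the membrane, was at 122, 178, 173, 143 and 149.5 CPM in Cdk7_KO, against 153, 164, 146, 143 and 130.2 CPM in Ctrl. The lowest and the highest of these libraries were both Cdk7_KO (log2 fold change 0.05, SE 0.10, edgeR adjusted p = 0.846). Dnm3, Amph and Synj1, the genes of dynamin 3, amphiphysin and synaptojanin 1, were at 0.09, 0.04 and 0.05 on the log2 scale.

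Levels between genes were compared in CPM per kilobase of exon. Rab3a (141 in Cdk7_KO, 123 in Ctrl), Syt4 (138 in Cdk7_KO, 114 in Ctrl), Vamp2 (119 in Cdk7_KO, 104 in Ctrl) and Cplx2 (117 in Cdk7_KO, 113 in Ctrl) stood highest. Next came Syt11, at 83.0 in Cdk7_KO and 90.9 in Ctrl. At the other end were Unc13c (0.46 in Cdk7_KO, 0.62 in Ctrl), Vamp1 (0.57 in Cdk7_KO, 0.51 in Ctrl) and Synpr (0.73 in Cdk7_KO, 1.19 in Ctrl).

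Within gene families 1 paralog often dominated in both genotypes. Shares were taken over the genes of the set alone, so relatives outside it, such as Rab3d, Rims4 and Dnm2, are left out. Of the synaptobrevin level per kilobase, Vamp2 held 99.5% in Cdk7_KO and 99.5% in Ctrl, the remainder being Vamp1. Sv2a made up 90.7% of the SV2 level in Cdk7_KO and 90.9% in Ctrl, and Rab3a 81.8% of the Rab3 level in Cdk7_KO and 81.0% in Ctrl. Syn1 held 85.3 ± 2.49% of the synapsin level in Cdk7_KO and 83.4 ± 3.01% in Ctrl (SD, n = 5 each). Unc13a held 90.6 ± 1.59% of the Munc13 level in Cdk7_KO and 88.1 ± 2.11% in Ctrl. The widest gaps in mean share were among the 5 synaptotagmins, with Syt11 at 25.7 ± 2.16% in Cdk7_KO and 30.7 ± 3.77% in Ctrl and Syt4 at 42.4 ± 4.73% in Cdk7_KO and 38.0 ± 3.95% in Ctrl. Rims3 followed, with 43.0 ± 1.88% of the RIM level in Cdk7_KO and 46.6 ± 1.18% in Ctrl. These differences in share were not tested.

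**Figure D3:**
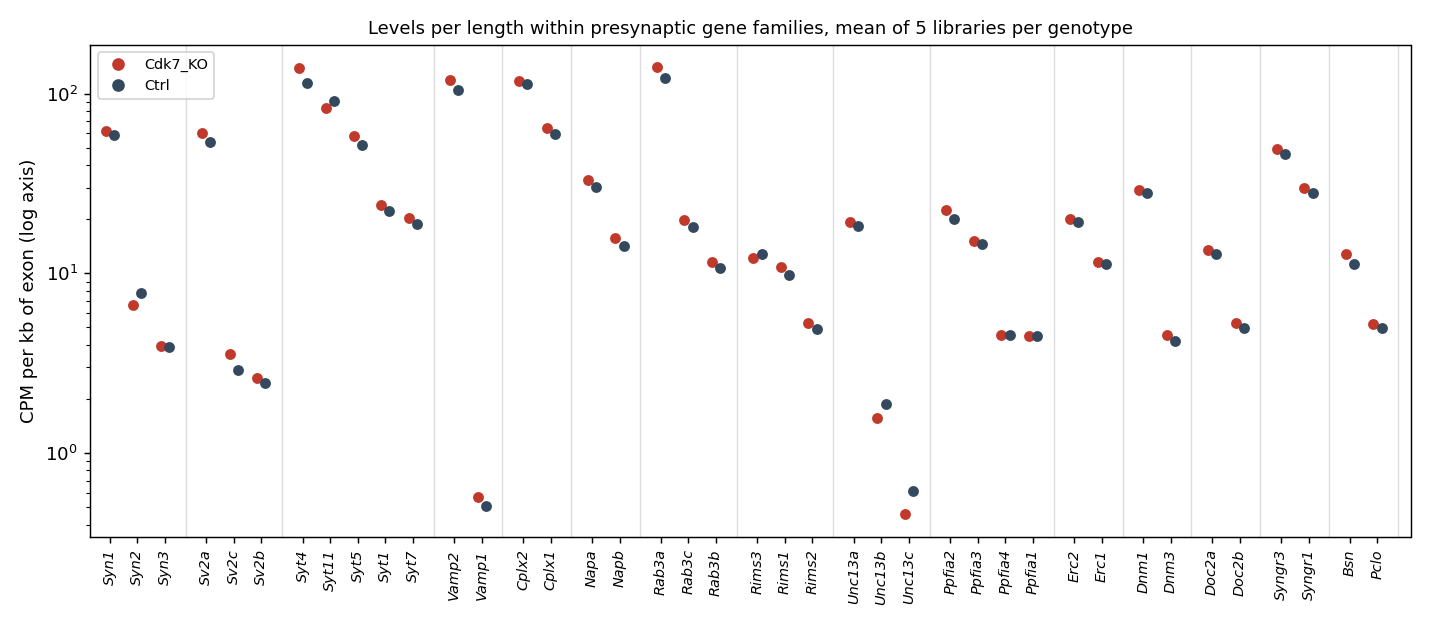
Mean CPM per kilobase of exon (log axis) of family members in Cdk7_KO and Ctrl, 5 libraries each, ordered within a family by the Ctrl level. The pairs of points nearly coincide, and Vamp2 stands at 119 in Cdk7_KO and 104 in Ctrl while Vamp1 stays under 1.

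Single libraries moved many of the genes together. Cdk7_KO replicate 1 was the lowest of its group for 34 of the 54 genes and replicate 3 the highest for 26. Among Ctrl libraries, replicate 3 was the highest for 24 genes and replicate 4 the lowest for 19. Leaving out Cdk7_KO replicate 1 took the number at an unadjusted p under 0.05 to 8 higher and 2 lower, against 4.76% and 10.8% of all genes, and leaving out Ctrl replicate 3 took it to 7 higher and 0 lower, against 5.26% and 8.86%. Without Cdk7_KO replicate 1 edgeR called 0.00632% of all genes higher and 0.0253% lower, without Ctrl replicate 3 it called 0%, and in both fits it called 0 of the 54. The median coefficient of variation within a group was 10.9% for the set and 16.0% for all genes tested, which were not matched to the set for level. Rims2, Napa and Cplx1 varied least, and Synpr, Sv2b and Sv2c most.

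**Figure D4:**
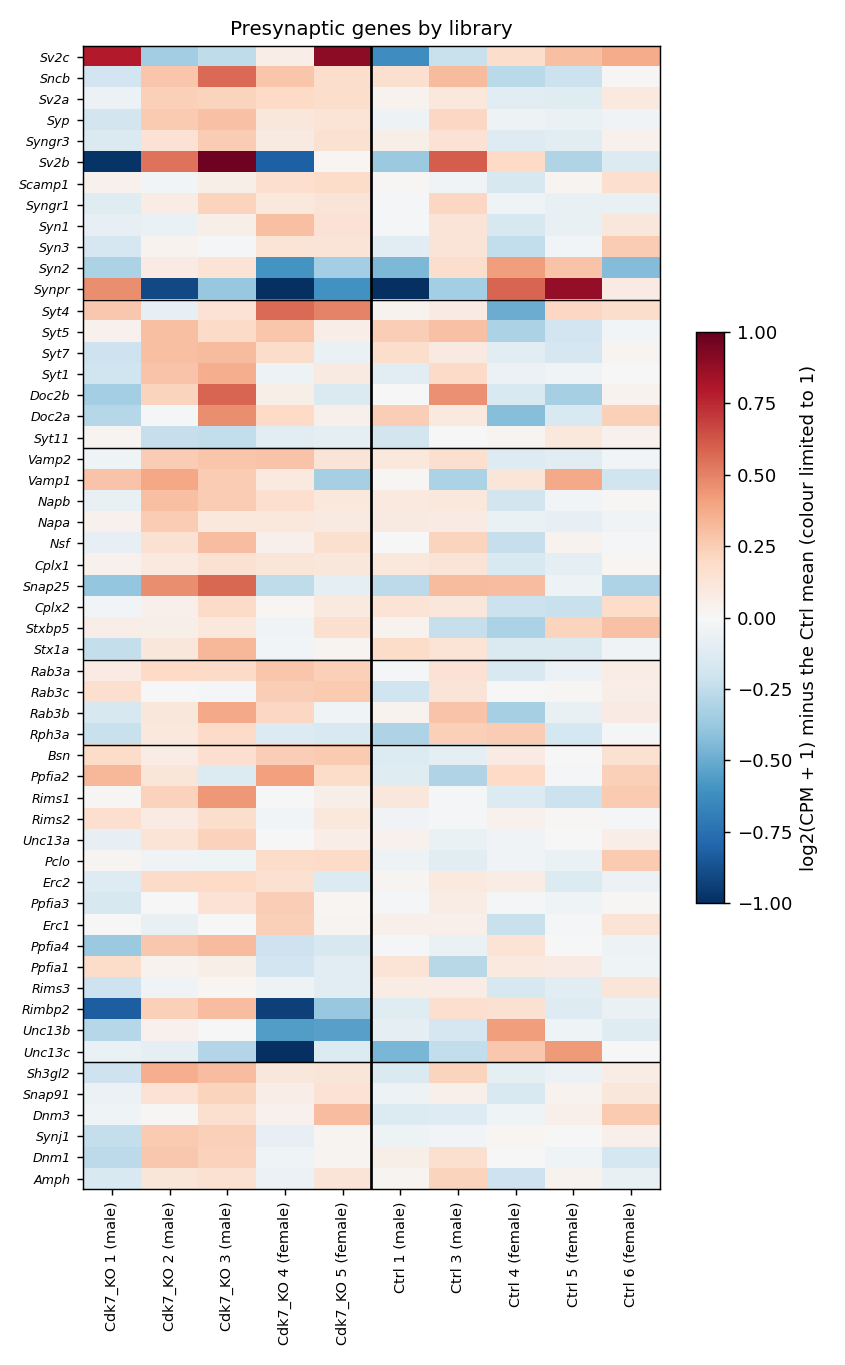
Level of each gene in each library as log2(CPM + 1) minus the Ctrl mean, Cdk7_KO libraries left of the line and Ctrl libraries right of it, with horizontal lines between classes in the order of the text. Cdk7_KO replicate 1 is pale or blue for most genes, being lowest in its group for 34 of 54, and replicate 3 is highest for 26.

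The genotypes were also compared within the male and the female libraries. In the 3 Cdk7_KO and 2 Ctrl male libraries, the median log2 fold change of the set was 0.05, with 36 positive genes. At an unadjusted p under 0.05, 1 gene was higher (Bsn, 0.25), against 2.27% of all genes, and 0 were lower, against 8.19%. In the 2 Cdk7_KO and 3 Ctrl female libraries the median was 0.13, with 39 positive genes, 11 higher at an unadjusted p under 0.05 (6.92% of all genes) and 5 lower (12.3%). Those higher were Syn1, Syp, Syngr1, Sv2a, Sncb, Syt4, Syt5, Vamp2, Cplx1, Rab3a and Rab3c, and those lower Syn2, Synpr, Rimbp2, Unc13b and Unc13c. Within sex, 6 of the 54 genes lay wholly higher and 2 wholly lower in male Cdk7_KO libraries (12.3% and 15.4% of all genes), and 20 and 7 in female ones (18.4% and 20.7%). In neither set did edgeR call a gene of the 54 after adjustment, and the smallest adjusted p was 0.0933, for Synpr in the female libraries.

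The difference between the sets was tested as an interaction of genotype and sex, in which edgeR called 0 of the 54 genes and 0% of all genes. At an unadjusted p under 0.05 there were 5 of the 54 (Syn1, Synpr, Syt5, Unc13b and Unc13c), against 7.34% of all genes. Unc13b had a log2 fold change of 0.05 in male and -0.67 in female libraries (edgeR adjusted p of the interaction 0.665). For Syt5 it was -0.09 in male and 0.36 in female libraries (edgeR adjusted p of the interaction 0.665). Interneuron markers summed to 26.3 and 126 CPM in the female Cdk7_KO libraries and to 374, 394.1 and 248 CPM in the female Ctrl libraries, against 283, 95.7 and 183 CPM in the male Cdk7_KO and 89.0 and 202 CPM in the male Ctrl libraries. Their part in these differences was not tested.

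Of 67 other presynaptic genes tested, chosen as further transporters, SNAREs, Rab effectors and coat proteins, edgeR and voom called 0 (0% of all genes), and DESeq2 called 1 lower (3.32% of all genes). The median log2 fold change was 0.08, 44 were positive, and 8 were higher (4.90% of all genes) and 5 lower (10.5%) at an unadjusted p under 0.05. Among those higher were Svop, Stxbp5l, Snap29, Snap47, Rab3ip and Itsn1, and those lower were Syngr2, Sypl, Vamp3, Dnm2 and Ston2. Vamp3, the gene of cellubrevin, a SNARE of recycling endosomes in most tissues, was at 23.0, 22.9, 23.2, 19.5 and 23.6 CPM in Cdk7_KO, against 35.4, 34.6, 35.5, 30.0 and 24.0 CPM in Ctrl. Every Cdk7_KO library lay below every Ctrl library, the nearest by a narrow margin. Vamp3 had a log2 fold change of -0.51 (SE 0.12) with an edgeR adjusted p of 0.161, and it fell in DESeq2 (adjusted p = 0.00902). With the index of other cells as covariate the value was -0.32.

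Syngr2, a synaptogyrin found mainly outside neurons, was at 2.24, 3.7, 3.61, 1.96 and 3.5 CPM in Cdk7_KO, against 6.95, 8.78, 3.06, 4.92 and 4.49 CPM in Ctrl. The groups overlapped through Ctrl replicate 4 (log2 fold change -0.91, SE 0.30, edgeR adjusted p = 0.192), and with the index of other cells as covariate the value was -0.33. Ston2, an endocytic adaptor for synaptotagmin, had 8.31, 10.95, 9.8, 6.79 and 6.71 CPM in Cdk7_KO, against 12.1, 11.8, 15.3, 12.6 and 9.51 CPM in Ctrl. Only Ctrl replicate 6 fell among the Cdk7_KO values (log2 fold change -0.53, SE 0.18, edgeR adjusted p = 0.198). Rab3ip, whose product Rabin8 activates Rab8, was at 39.8, 39.7, 38.7, 41.7 and 42.1 CPM in Cdk7_KO, against 34.9, 35.7, 35.2, 36.1 and 35.7 CPM in Ctrl. Its groups did not overlap, with a log2 fold change of 0.19 (SE 0.06) and an edgeR adjusted p of 0.192.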

How the data were processed

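The authors deposited raw counts, whole numbers for every gene and library. STAR, Salmon and the GRCm38 build are named per the submitters' processing notes. Their versions and roles and the strand setting of the counting were not given in the sources used here. Exons of 20 of the 54 genes overlap an antisense gene in GENCODE M21, so reads of both may be counted together. The overlap is 9 of 3299 exon bases in Syn1, 29 of 2226 in Rab3a, 566 of 3892 in Syt4 and 495 of 12623 in Unc13a. Larger overlaps are those of Doc2a (1103 of 2803 bases), Syn3 (1733 of 12282) and Erc1 (1919 of 16271). Each count column matched 1 sample by name, and 0 columns were left over. No pair of libraries agreed within sampling noise (smallest chi-square per gene 11.2). Replicates are separate pups.

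The main test was edgeR 4.0.16 in R 4.3.3 (filterByExpr with a minimum count of 10, TMM factors, glmQLFit and glmQLFTest, genotype alone, Benjamini-Hochberg over 15578 genes, threshold 0.05). Log2 fold changes are Cdk7_KO over Ctrl and 95% intervals come from their standard errors. DESeq2 1.42.0, in which 12037 adjusted p-values were missing and not counted, and limma 3.58.1 (voom) were alternatives, as were RLE size factors, library totals, other filters, each library left out, a replicate block, sex as a factor, cell marker scores as covariates, and male or female libraries alone. The index of other cells is the mean of the scaled mean log2 CPM of the glial, vascular, microglial and oligodendrocyte marker lists, and the interneuron score the mean log2 CPM of the interneuron markers. The index was at most 0.104 in Cdk7_KO and at least 0.244 in Ctrl. With no overlap between the genotypes, sign turns under this covariate cannot be assigned to other cells or to genotype. Levels per kilobase use the summed exon length of GENCODE M21. The procedure was tested on simulated data, in which 50 genes were changed by each fold and 5 unchanged genes were called. Each gene was drawn independently.

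Values per library are given, in each class, for the 2 genes with the smallest p and the 1 with the highest level per kilobase, for any gene called or without overlap, for Cdk7, and for the 4 other presynaptic genes with the smallest p. Synpr was added after its values were seen. The genes, lists and tests were chosen with earlier results of these data known.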

Additional observations from a re-analysis of the deposited data

Results flagged for a closer look

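In 9 of 118 groups of 5 libraries, 1 library lay far from the others (gap over range above Dixon's critical value of 0.71); chance flags about 1 in 20 groups. In Cdk7_KO, replicate 1 was low for Sv2a (239.2 CPM, next 281.5), replicate 2 was high for Napa (136.4, next 122.9), and replicate 4 was low for Unc13c (1.428, next 4.095) and Vamp3 (19.46, next 22.85). In Ctrl, replicate 3 was high for Syp (302.6 CPM, next 255.2) and Syngr1 (156.1, next 133.2). Ctrl replicate 4 was low for Syt4 (309.2, next 448.3) and high for Unc13b (57.04, next 41.17), and Ctrl replicate 6 was high for Pclo (133.2, next 108.7).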

How the results depend on the processing

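Cdk7 passed in DESeq2 (-1.54), with sex as a factor (-1.43, adjusted p = 0.00828) and with no filter (-1.54, adjusted p = 0.0393), and leaving out a library gave -1.68 to -1.44 (adjusted p = 0.0391 without Cdk7_KO replicate 1). Of the 54 genes, 1 was called with sex as a factor (Bsn, 0.22) and 0 under the other alternatives. The number higher at an unadjusted p under 0.05 was 3, and became 1 with library totals (2.00% of all genes), 4 with no filter (3.30%), 6 with sex as a factor (6.98%), 1 (Rims2) with the index of other cells (0.828%), 2 (Rims2 and Bsn) with the interneuron score (1.91%), 1 in male (2.27%) and 11 in female libraries (6.92%), and 2 to 8 when a library was left out (1.98 to 5.69%). The number lower was 0, and became 1 with library totals (Syt11, 12.2% of all genes), 5 in female libraries (12.3%) and 0 to 2 when a library was left out (8.27 to 11.3%). The numbers without overlap were 6 higher and 2 lower in male libraries (12.3% and 15.4% of all genes), 20 and 7 in female ones (18.4% and 20.7%), and 0 to 2 higher when a library was left out (1.08 to 2.49%). Library totals moved the median of all genes to -0.04, with 40.6% positive, and that of the set to 0.04, with 40 of 54 positive. The median of the set was 0.04 without Cdk7_KO replicate 3 and 0.13 without replicate 1, and that of the calcium sensors was -0.055 in male libraries. Positive log2 fold changes were found for 44 genes of the set with the index of other cells (median 0.1043, 50.43% of all genes positive). The interneuron score also left 44 positive (median 0.06536, 54.01% of all genes positive). The sign turned for 14 of the 54 genes with the index of other cells, 12 with the interneuron score, 22 in male and 5 in female libraries, 4 with library totals, and up to 8 when a library was left out (without Ctrl replicate 4). Among the genes given by library other than Synpr, it turned for Syn1 (-0.00042 without Cdk7_KO replicate 4 up to 0.11 without replicate 1, -0.076 with the index of other cells, -0.027 with the interneuron score, -0.096 in male libraries), Dnm1 (-0.0045 without Cdk7_KO replicate 2 up to 0.12 without replicate 1, -0.017 in male libraries), Cplx2 (-0.062 in male libraries), Ppfia2 (-0.082 with the index) and Unc13b (0.050 in male libraries); the causes were not tested. Same-numbered libraries deviated together with r of -0.104, 0.314, 0.143 and 0.173 for numbers 1, 3, 4 and 5, so that number 1 stayed under the 0.1 set for every pair and the libraries were treated as unpaired. As a hint from the data, Ctrl replicates 3, 4 and 5 correlated best with the Cdk7_KO library of their number, while Ctrl replicate 1 and all 4 Cdk7_KO libraries correlated best with another. A replicate block over these numbers gave 5 higher and 1 lower at an unadjusted p under 0.05 (5.25% and 11.3% of all genes), 0 called, and -0.055 for Dnm1. Vamp3 passed with sex as a factor (-0.54, adjusted p = 0.0221). The interaction called 0 under every alternative run. In the simulation, with each gene drawn independently, edgeR recovered 38% of genes changed 1.5-fold and 72% of those changed 2-fold. Simulated differences of this size thus went uncalled in part with 5 libraries a group, and these rates are not those of the set.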
